A study of Homo sapiens with 8 samples.

Results

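Most genes with a ZNF symbol belong to the largest family of human transcription factors, the C2H2 zinc finger proteins. Of the 7169 PML::RARA peaks that carried a gene symbol, 147 (2.05%) lay at promoters of 139 ZNF genes. A gene counted as ZNF when its symbol was ZNF followed by digits, with a trailing letter allowed, so ZNF37BP, ZNF559-ZNF177 and ZNFX1 stayed outside. The rule went by symbol alone and took in genes whose protein gave 0 matches to a C2H2 finger, such as ZNF503, ZNF703 and ZNF185. It also took in 3 genes that are not protein-coding. The remaining 7022 labelled peaks named 6407 other genes, and the whole list held 15412 peaks. The peaks came from U937-PR9, a human monocytic cell line that carries a PML::RARA transgene under a zinc-inducible promoter, treated with 100 μM ZnSO4 for 5 h. The series described 8 Cut&Run libraries in 4 groups of 2 replicates, which paired an anti-PML-RARA or an anti-RARA antibody with zinc-induced cells or with uninduced cells that received water for the same 5 h. Of these, only zinc-induced cells with the anti-PML-RARA antibody were analysed here. Their list gave 1 value per peak for both replicates together, so no spread between replicates could be computed and every comparison is a description. In this list the fusion protein and the added zinc cannot be told apart.

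PML::RARA joins the promyelocytic leukaemia protein to the retinoic acid receptor alpha and is the defining fusion of acute promyelocytic leukaemia. Most ZNF proteins carry tandem C2H2 zinc fingers, each of which can read a few bases of DNA. Many also carry a KRAB domain, which recruits the co-repressor TRIM28 and with it the machinery that places H3K9 methylation, and much of the KRAB branch arose by tandem duplication, which left large gene clusters on chromosome 19.

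The sequences below show an ETS motif that ZNF peaks held at a higher share than other labelled peaks, the receptor element AGGTCA that bears on the DNA contact of the fusion, and the GC box that most ZNF peaks held. Each is a stretch of GRCh37 (hg19) outside every annotated exon with the motif and 40 bases on both sides, taken from the highest ZNF peaks for which such a stretch could be shown. Some higher peaks that held a motif, such as those whose copy lay in or next to an exon, were passed over. Capitals mark the motif, and minus-strand entries are written as the reverse complement. The ETS core CCGGAAGT, read by ETS family factors, is shown at ZNF668 (chr16:31085594-31085681, plus strand), ZNF414 (chr19:8578737-8578824, plus strand, intron 1) and ZNF787 (chr19:56632782-56632869, minus strand).
ZNF668 CCGGAAGT: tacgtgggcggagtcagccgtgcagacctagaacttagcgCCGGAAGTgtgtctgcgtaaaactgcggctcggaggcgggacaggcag
ZNF414 CCGGAAGT: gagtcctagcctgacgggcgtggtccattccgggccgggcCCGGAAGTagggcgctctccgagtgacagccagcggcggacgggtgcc
ZNF787 CCGGAAGT: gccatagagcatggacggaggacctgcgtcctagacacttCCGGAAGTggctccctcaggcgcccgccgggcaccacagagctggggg

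The hexamer AGGTCA is the element that retinoic acid receptors bind when it occurs as a direct repeat. It is shown at ZNF595 (chr4:51804-51889, plus strand), the highest ZNF peak of all, and at ZNF775 (chr7:150076183-150076268, plus strand).
ZNF595 AGGTCA: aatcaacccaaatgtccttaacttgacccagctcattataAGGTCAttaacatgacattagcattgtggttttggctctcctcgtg
ZNF775 AGGTCA: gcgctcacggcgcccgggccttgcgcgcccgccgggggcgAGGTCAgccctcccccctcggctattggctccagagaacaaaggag

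The GC box GGGCGG, read by SP and KLF factors, is shown at ZNF384 (chr12:6798763-6798848, plus strand) and ZNF764 (chr16:30569868-30569953, minus strand), where it recurs within a tandem repeat.
ZNF384 GGGCGG: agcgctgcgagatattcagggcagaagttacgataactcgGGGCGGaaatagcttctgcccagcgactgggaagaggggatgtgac
ZNF764 GGGCGG: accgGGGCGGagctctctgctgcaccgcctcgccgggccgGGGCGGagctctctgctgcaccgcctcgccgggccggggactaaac

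The first question was how many members of the family carried a peak. Of the 508 protein-coding ZNF genes in the annotation, 136 (26.8%, Wilson interval 23.1 to 30.8) had a labelled peak, against 30.3% of all 20090 protein-coding genes. On chromosome 19, 43 of 246 ZNF genes (17.5%, 13.2 to 22.7) had one, against 32.7% of all protein-coding genes there and 441 of 1234 genes outside the family (35.7%, 33.1 to 38.5). On the other chromosomes, 93 of 262 ZNF genes (35.5%, 29.9 to 41.5) had one, against a background of 30.1%. The low share was therefore found on chromosome 19, while elsewhere the interval of the ZNF share held the background. With the median height of the list as a minimum, the ZNF share elsewhere was 16.8%, just under the 17.4% of genes outside the family, where it had been above them. The intervals cover the counting of genes alone, and neighbouring genes that arose by duplication are not independent.

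The 147 peaks fell on 20 of the 23 chromosomes in the list, with none on chromosomes 13, 21 and 22. Chromosome 19 held 45 of them (30.6%), against 7.33% of the other labelled peaks. Chromosome 16 followed with 18 peaks (12.2%) and chromosome 7 with 16 (10.9%), against 4.73% and 4.71% of the others. The annotated genes were spread yet more unevenly, since chromosome 19 held 246 of the 508. On chromosome 16, 15 of 30 annotated ZNF genes had a labelled peak (Wilson interval 33.2 to 66.8%), and on chromosome 1 it was 10 of 20 (29.9 to 70.1%). Chromosome 7 had 12 of 35 (20.8 to 50.8%), chromosome 3 had 3 of 19 (5.52 to 37.6%) and chromosome 22 had 0 of 4 (0 to 49%). Of all protein-coding genes off chromosome 19, 30.1% had one, a share inside each of these intervals but that of chromosome 16. The share of all genes on each single chromosome was not computed.

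**Figure D1:**
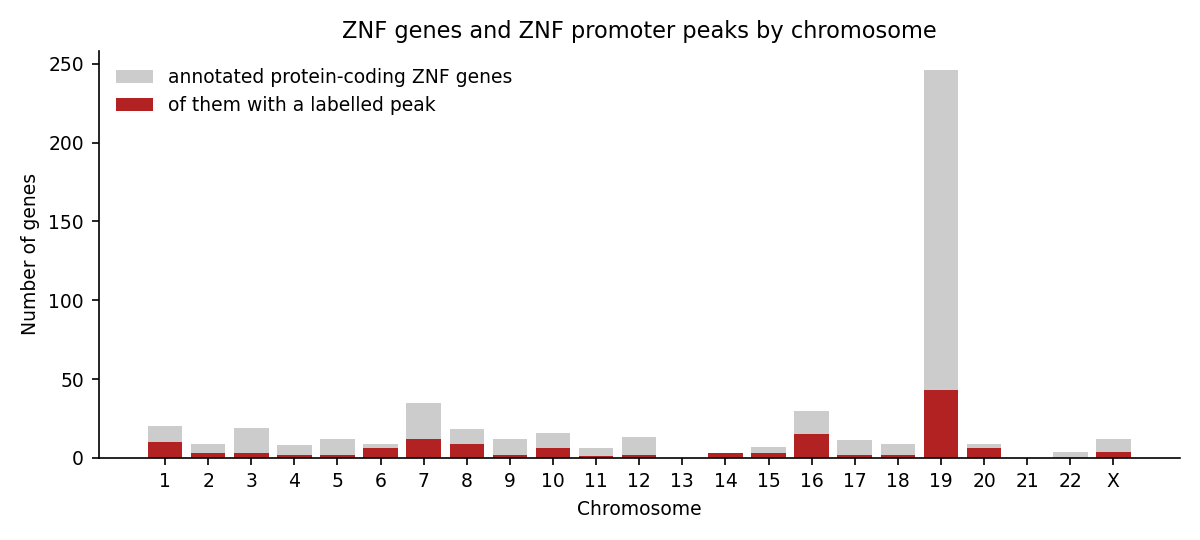
Number of annotated protein-coding ZNF genes on each chromosome (grey bars) and of those with a labelled PML::RARA peak (red bars). Chromosome 19 holds 246 of the genes and 43 of those with a peak, while on chromosomes 1 and 16 the red bar reaches the middle of the grey one.

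The KRAB domain split the family further. A profile of the KRAB A box matched the protein of 336 ZNF genes and missed 168, and for the others no protein could be resolved. Of the KRAB genes, 72 (21.4%, 17.4 to 26.1) had a labelled peak, and of those without the match, 62 (36.9%, 30 to 44.4). The gap was wider on chromosome 19, where 30 of 212 KRAB genes (14.2%, 10.1 to 19.5) and 12 of 33 genes without KRAB (36.4%, 22.2 to 53.4) had one. On the other chromosomes the shares were 42 of 124 (33.9%, 26.1 to 42.6) and 50 of 135 (37%, 29.4 to 45.4), and their intervals overlapped widely. ZNF genes with a peak coded for a median of 9 fingers, and those without one for 11.

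**Figure D2:**
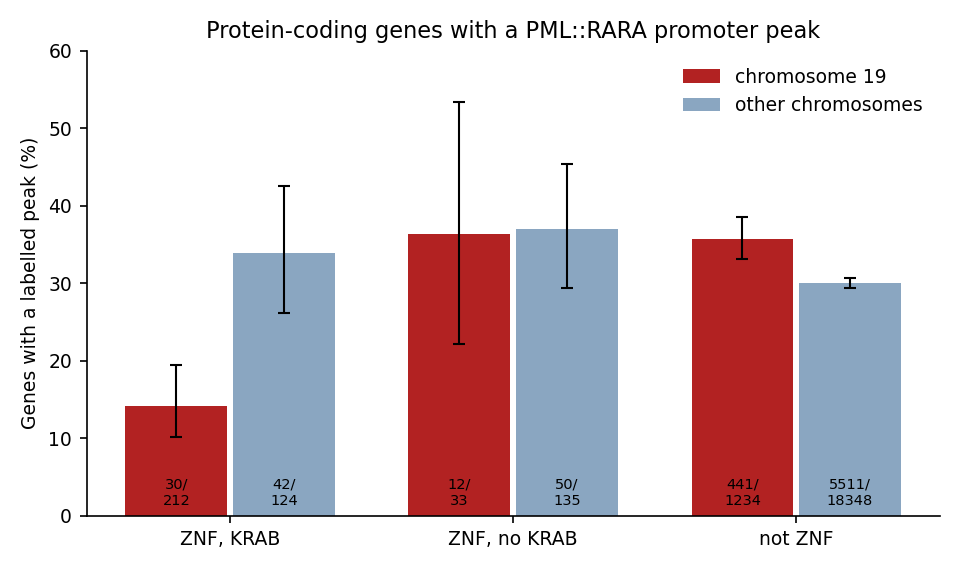
Share of protein-coding genes with a labelled PML::RARA peak, in percent, for ZNF genes with and without a KRAB match and for all genes outside the family, on chromosome 19 (red) and the other chromosomes (blue). Error bars are Wilson 95% intervals and the fractions give the genes with a peak over all genes. The bar for KRAB genes of chromosome 19 stands at 14.2%, under the intervals of all the other bars.

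ZNF promoter peaks were lower and narrower than other promoter peaks, most of all on chromosome 19. Height is the largest signal within a peak, in the units of the deposited list. On chromosome 19 the median of the 45 ZNF peaks was 23 (quartiles 20 and 32, range 16 to 48), and that of the 515 other labelled peaks 30 (22 and 38, range 16 to 82). The mean log2 height differed by -0.24 (SE over peaks 0.068). On the other chromosomes the 102 ZNF peaks had a median of 24 (20 and 32, range 16 to 64) and the 6507 others one of 26 (20 and 34). There the mean log2 difference was -0.08 with an SE of 0.050, so away from chromosome 19 the difference in height was under 2 standard errors.

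ZNF peaks were the narrower ones on both sets of chromosomes. The median ZNF peak on chromosome 19 was 892 bp wide (quartiles 727 and 1156) and the median other peak there 1135 bp, a mean log2 difference of -0.38 (SE 0.11). Elsewhere the medians were 942 and 1110 bp, with a mean log2 difference of -0.24 (SE 0.084). Within classes of peaks of like height the ZNF peaks were still narrower on average, with log2 differences of -0.16 on chromosome 19 and -0.18 elsewhere. They were narrower in 8 of 9 classes on chromosome 19 and in 6 of 10 elsewhere. Within classes of like width, the log2 difference in height was -0.13 on chromosome 19, with ZNF peaks lower in 8 of 9 classes, and -0.02 elsewhere, with ZNF peaks lower in 6 of 10 classes. The standard errors treat each peak as independent and hold no replicate error.

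**Figure D3:**
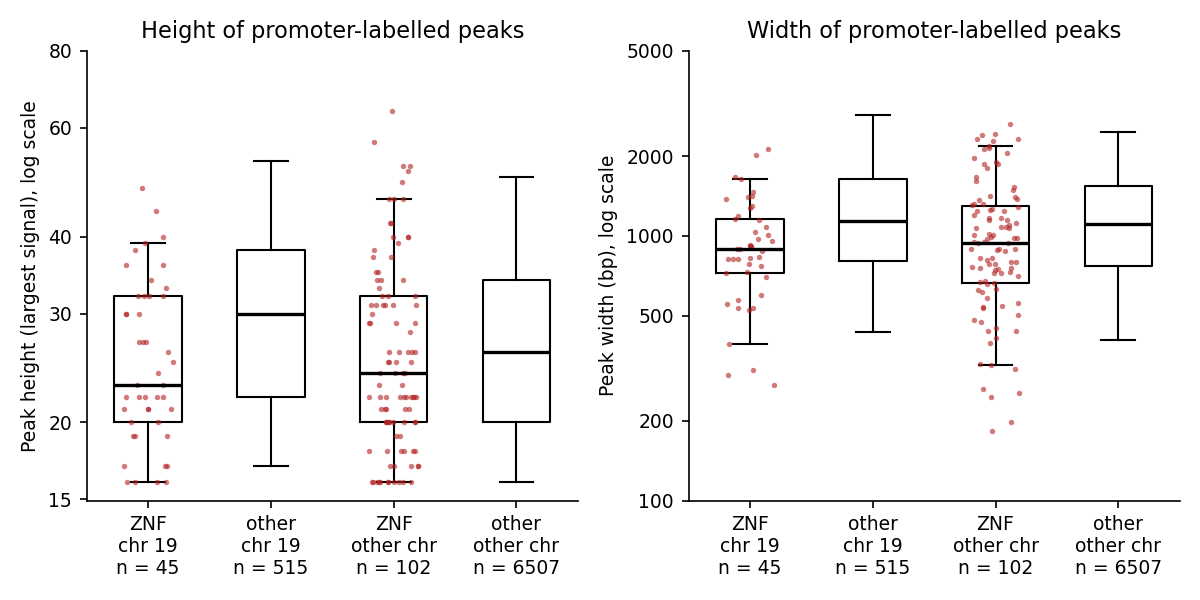
Height (left, largest signal) and width (right, bp) of promoter-labelled peaks on log axes, for ZNF genes and all other genes on chromosome 19 and on the other chromosomes. Boxes give the quartiles and median, whiskers the 5th and 95th percentiles, and points the single ZNF peaks. The medians of height read 23, 30, 24 and 26 from left to right, and those of width 892, 1135, 942 and 1110 bp.

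The upper end of both scales was thinly filled, most of all on chromosome 19. A height of 35 or more, the upper quartile of labelled peaks, was reached by 27 of 147 ZNF peaks (18.4%, 12.9 to 25.4) against 25.5% of all labelled peaks. On chromosome 19 it was reached by 7 of 45 (15.6%, 7.75 to 28.8), against 33.6% of the other labelled peaks there. A width of 1539 bp or more was reached by 21 ZNF peaks (14.3%, 9.54 to 20.9) against 25% of all labelled peaks, and on chromosome 19 by 4 of 45 (8.89%), against 30.3% of the others there. On the other chromosomes 20 of 102 ZNF peaks (19.6%, 13.1 to 28.4) reached the height and 17 (16.7%, 10.7 to 25.1) the width. The other labelled peaks there stood at 25% and 24.9%, inside these intervals. At the low end, 15 of the 147 ZNF peaks (10.2%) had a height of 16 or less, against 5.97% of the others. Height and width rose together among ZNF peaks about as among the others (Spearman's rho 0.494 over 147 peaks and 0.445 over 7022, across peaks of 1 list).

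Peaks of KRAB genes had lower medians than those of other ZNF genes in both measures. The 75 peaks of KRAB genes reached a median height of 22 (18.5 and 30) and a median width of 824 bp (592.5 and 1038). The 66 peaks of genes without KRAB had medians of 26.5 (20.25 and 32.75) and 1075 bp (786 and 1595). On chromosome 19 the medians were 22 against 31 in height and 824.5 against 1170 bp in width, over 30 and 14 peaks. On the other chromosomes the heights of 22 and 25 lay closer, over 45 and 52 peaks. The KRAB peaks were thus the lower and narrower ones in both places, with quartile ranges that overlapped.

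The highest ZNF peak lay at ZNF595 on chromosome 4 (51272 to 51995), at a height of 64 over 724 bp. Its apex was 1492 bp upstream of the nearest annotated start of the gene, in a stretch of 47.1% GC, so it was the tallest but not a typical start-site peak. ZNF384, a factor whose gene is a recurrent fusion partner in acute leukaemia, followed at 57 over 1398 bp (chromosome 12, 6797608 to 6799005), its apex 4 bp upstream of its start. ZNF250 and ZNF764, both KRAB genes, had heights of 52 with widths of 2331 and 752 bp. ZNF292 reached 51, ZNF263 reached 49, ZNF558 reached 48 and ZNF775 reached 46. ZNF436 and ZNF688 also reached 46 and were placed behind ZNF775 by width. Of the 8 highest, ZNF558 was the single one on chromosome 19.

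The widest peaks lay at other genes for the most part. ZNF367 had the widest, at 2645 bp with a height of 37, followed by ZNF503 at 2422 bp with a height of 31, ZNF775 at 2405 bp and ZNF250 at 2331 bp. ZNF252P, annotated as a non-coding gene, had 2320 bp with a height of 34, ZNF48 2286 bp with 40, ZNF768 2189 bp with 39 and ZNF7 2139 bp with 35. ZNF775 and ZNF250 stood in both sets of 8, ZNF775 through that tie. At the other end, ZNF732, ZNF678, ZNF175, ZNF224 and ZNF207 were the narrowest of the 15 peaks at the lowest height, 16, with widths of 254, 263, 274, 312 and 314 bp.

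Most ZNF peaks sat on the start site. The median distance between apex and nearest annotated start of the labelled gene was 69 bp, against 103 bp for the others, and 142 of 147 (96.6%) lay within 1 kb, against 92.2%. Within 100 bp the shares were 62.6% and 49.2%. The apex was upstream of the nearest start in 104 peaks, downstream in 42 and at it in 1. Relative to the canonical transcript, 117 apexes lay upstream of it, 15 in exon 1 and 15 in an intron, of which 12 were in intron 1. A gene on the opposite strand began within 1 kb of 15 ZNF peaks (10.2%), against 16.9% of the others.

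The 5 apexes beyond 1 kb belonged to ZNF763, ZNF263, ZNF595, ZNF414 and ZNF732, at 40042, 19504, 1492, 1304 and 1170 bp. The peak labelled ZNF763 lay 73 bp from a start of the neighbouring family member ZNF700. ZNF263 also had a peak on its own start, 4 bp downstream, with a height of 49, and its distal peak had a height of 42. Of the 139 genes, 131 had 1 peak and 8 had 2. ZNF292 paired a peak of height 16 with one of 51, ZNF3 one of 32 with one of 17, ZNF767P one of 40 with one of 22, and ZNF575 one of 34 with one of 23. The pairs of ZNF200 (22 and 20), ZNF747 (21 and 16) and ZNF414 (32 and 30) were closer in height, with gaps of 392, 401 and 760 bp between the peaks.

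Some ZNF peaks stood side by side along the chromosomes. In 19 places at least 2 successive labelled peaks of different ZNF genes followed each other with no other labelled gene between them, and these runs held 66 of the 147 peaks (44.9%). On chromosome 19 there were 10 such runs with 31 of the 45 peaks (68.9%). No such share was computed for other families or for annotated ZNF genes, so these counts cannot be told apart from the clustering of the genes. The run with the most peaks was on chromosome 7, from 148787568 to 149535877, with 9 peaks of 8 genes from ZNF786 to ZNF862 and heights of 16 to 40. A run on chromosome 16, from 30537259 to 30622044, held 7 peaks of 6 genes within 84786 bp, with heights of 16 to 52 (ZNF768, ZNF747, ZNF764, ZNF688, ZNF785 and ZNF689). Next by number of peaks was chromosome 8, with 6 from ZNF251 to ZNF252P and heights of 17 to 52.

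The runs of chromosome 19 differed from each other in height. ZNF627, ZNF763, ZNF44, ZNF564 and ZNF490 on the short arm had heights of 36, 30, 25, 44 and 19. ZNF565, ZNF566, ZNF260, ZNF383 and ZNF527 on the long arm had 26, 17, 27, 21 and 22. ZNF175, ZNF432 and ZNF616 had 16, 17 and 16, where 16 was the lowest height of any ZNF peak. The short-arm run reached the highest values of these.

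Along chromosome 19 the share of ZNF genes with a peak changed by region. Up to 15 Mb, 12 of 46 had one (26.1%, 15.6 to 40.3), from 25 to 45 Mb 9 of 60 (15%, 8.1 to 26.1), and from 45 Mb to the end 21 of 103 (20.4%, 13.7 to 29.2). From 15 to 25 Mb it was 1 of 37 (2.7%, 0.479 to 13.8), and that 1 was ZNF101, at a height of 21 over 727 bp. Genes outside the family had a peak in 44.1%, 32.2%, 27.9% and 40.4% of cases in the same order of regions. The ZNF share was lower than that of the other genes in each of the 4 regions.

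No ZNF gene from 20 to 25 Mb had a labelled peak, in a window chosen after the values were seen. It held 33 ZNF genes, 32 of them with KRAB, among them ZNF91 and ZNF93, which silence retrotransposons, and ZNF43, ZNF85, ZNF208 and ZNF254. The count of 0 allows a share of up to 9.09%, taken as 3 counts of the total here and below (the Wilson limit is 10.4%), and the list held no peak of any kind in these 5 Mb, at or away from a start. The list held 14 peaks between 19 and 20 Mb and 1008 on the rest of the chromosome, where 42 of 209 ZNF genes (20.1%) had a labelled one. Only 3 protein-coding genes outside the family lay in the window, also with 0 labelled peaks, so family and region cannot be told apart there. The start windows of these genes were poorer in CpG than those of the rest of the chromosome, with a median ratio of observed to expected CpG of 0.469 against 0.806, and the part of CpG in the gap was not tested.

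**Figure D4:**
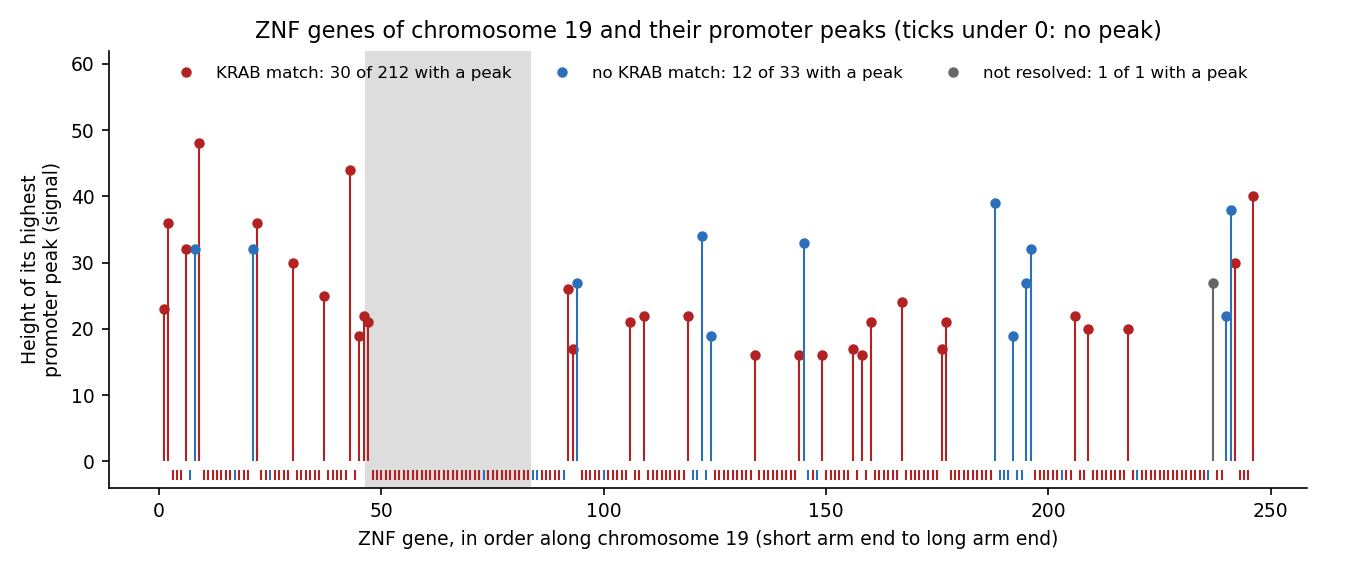
Height of the highest labelled peak of each of the 246 ZNF genes of chromosome 19, in their order along the chromosome, coloured by KRAB match (red with, blue without, grey not resolved), with a tick under 0 for a gene without a peak. The grey band marks the 37 genes from 15 to 25 Mb, of which the first alone has a peak, with a height of 21.

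Reads of repeated sequence can be lost in alignment, so the uniqueness of the start windows is given beside these shares. A window was counted as repeated when at least 10% of its 50-base words occurred again in the genome. That held for 4 of 136 ZNF genes with a peak and 25 of 368 without one, and for 2 of 31 windows between 20 and 25 Mb. Among genes with unique windows the shares with a peak were 18.2% on chromosome 19 and 37.2% elsewhere, close to those of all ZNF genes. KRAB genes of chromosome 19 stood at 14.9%, beside 36.4% of those without KRAB. On the other chromosomes KRAB genes stood at 39.3% (30.5 to 48.7) and those without KRAB at 35.7% (27.9 to 44.2), the reverse of the order over all windows, with intervals that overlapped.

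CpG content moved with the share of genes that had a peak. Start windows of ZNF genes with a peak had a median GC of 67.6% and a CpG ratio of 0.852, those without one 61.8% and 0.786. Genes were divided at the quartiles of the CpG ratio over all protein-coding genes. From the lowest to the highest of these 4 classes, 6.82%, 21.1%, 32.9% and 36% of ZNF genes had a labelled peak, against 8.51%, 30.4%, 40.7% and 43.9% of the genes outside the family. Off chromosome 19 the ZNF shares were 11.5%, 29.1%, 46.5% and 38.6%. Their intervals held the share of the genes outside the family on all chromosomes in each class. On chromosome 19 the ZNF shares were 0 of 18, 15.1%, 17.9% and 31.7%, and those of the other genes there 13.6%, 31.5%, 50.6% and 57.5%. ZNF genes of chromosome 19 thus had the lower share in all 4 classes. The intervals were apart in every class but the lowest, where the count of 0 allows up to 16.7%.

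**Figure D5:**
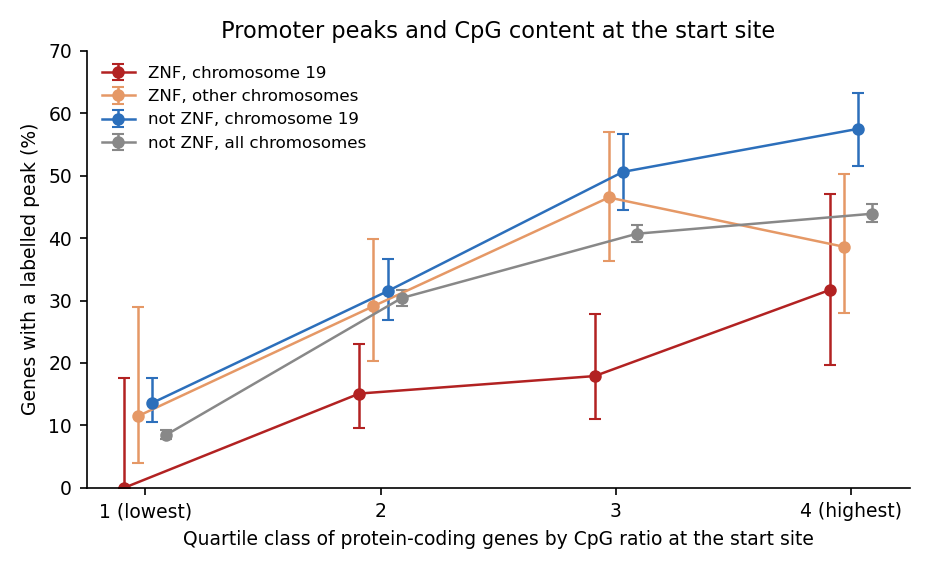
Share of protein-coding genes with a labelled PML::RARA peak, in percent, by quartile class of the observed to expected CpG ratio in the start window, for ZNF genes on chromosome 19 (red) and elsewhere (orange), genes outside the family on chromosome 19 (blue) and on all chromosomes (grey). Points are shares and bars Wilson 95% intervals. The red points run from 0% to 31.7% and lie under the blue ones, which run from 13.6% to 57.5%.

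The motifs shown at the outset were counted on both strands within 200 bases of each apex. CCGGAAGT occurred in 24 of 147 ZNF peaks (16.3%, 11.2 to 23.1) and in 8.62% of the other labelled peaks, and GGAAGT, which it contains, in 44.9% and 36.5%. On chromosome 19 CCGGAAGT occurred in 10 of 45 (22.2%) and 7.77%, elsewhere in 13.7% and 8.68%. The start windows of protein-coding ZNF genes, with or without a peak, held CCGGAAGT in 17.1% of cases and those of all protein-coding genes in 6.18%. For GGAAGT these shares were 43.3% and 26.9%. For both motifs the share among ZNF peaks was thus close to that of ZNF start sites in general. ZNF peaks with CCGGAAGT had a median height of 21.5 and those without it one of 24.

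AGGTCA occurred in 28 ZNF peaks (19%, 13.5 to 26.2) and in 16.5% of the others, a value inside the ZNF interval. Within 100 bases of the apex it was 4.76% (2.33 to 9.5) and 9.38%, so in the shorter window the ZNF share was the lower one, on chromosome 19 as well (4.44% and 9.13%). The 28 peaks with it had a median height of 26 and the 119 without it one of 23. No ZNF peak held a direct repeat of AGGTCA with a spacer of 1 to 5 bases, which allows up to 2.04%, and among the other labelled peaks it was 0.0854%. All protein-coding start windows held AGGTCA in 14.1% and the direct repeats in 0.0555% of cases. Those of protein-coding ZNF genes, with or without a peak, held AGGTCA in 19%, the same share as ZNF peaks, and the direct repeats in 0%.

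GGGCGG was found in 75.5% of ZNF peaks, 76.2% of the others and 66.5% of all protein-coding start windows. ACTACA, part of the site of ZNF143, was found in 22 ZNF peaks (15%, 10.1 to 21.6), in 11 of 45 on chromosome 19 (24.4%) and in 11.3% of the others, while start windows held it in 21.2% of ZNF genes and 9.19% of all genes. TGACGTCA, the site of CREB and ATF factors, occurred in 9 ZNF peaks (6.12%, 3.25 to 11.2), 3.06% of the others and 2.69% of all start windows. CACGTG, the E-box read by MYC and USF factors, occurred in 15 ZNF peaks (10.2%, 6.28 to 16.2), 12.6% of the others and 9.42% of all start windows. On chromosome 19 it occurred in 1 of 45 ZNF peaks (2.22%, 0.393 to 11.6) and 13% of the others, elsewhere in 13.7% and 12.6%. CCAAT was found in 47.6% of ZNF peaks, 44.1% of the others and 38.3% of all start windows. GCATGCGC (NRF1), AAGATGGCG (YY1) and TATAAA stood at 4.76%, 1.36% and 4.08% of ZNF peaks, against 6.21%, 4.17% and 5.45% of the others and 4.21%, 3.27% and 9.7% of all start windows. Start windows of protein-coding ZNF genes, with or without a peak, held GGGCGG in 74%, CCAAT in 48.8% and CACGTG in 5.75% of cases. TGACGTCA stood there at 4.17%, GCATGCGC at 5.16%, AAGATGGCG at 2.98% and TATAAA at 2.58%. For GGGCGG and CCAAT the ZNF peaks were thus close to ZNF start sites in general.

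Members were also grouped by what their proteins do. Of 6 activators or repressors of named promoters, 2 had a labelled peak, ZNF76 (height 32, width 1670 bp) and ZNF410 (37, 882 bp), which drives the NuRD subunit gene CHD4. ZNF148, ZNF281 and ZNF24 had no peak within 10 kb of a start. ZNF143, the factor of the ACTACA site, had no label, but a peak of height 43 lay 173 bp from one of its starts and carried another gene's symbol. Of 12 partners of chromatin complexes, 6 had a labelled peak: ZNF219 with a height of 31, ZNF644 with 29, ZNF217 with 26, ZNF335 with 24, ZNF592 with 23 and ZNF516 with 16. ZNF687, which shares a complex with ZNF592, had an unlabelled peak of height 54 and width 2540 bp, 281 bp from a start.

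Of 6 KRAB proteins known to silence repeats, ZNF genes or imprinted loci, 2 had a labelled peak. ZNF274, which marks the 3′ ends of ZNF genes with H3K9 methylation, had a height of 27 and ZNF808 one of 24. ZNF91, ZNF93, ZNF649 and ZNF445, the last a keeper of imprinting, had none. Of 7 genes of blood cells and leukaemia, ZNF384 (57) and ZNF385A (26) had one, while ZNF521, a regulator of early progenitors, and ZNF362, ZNF423, ZNF467 and ZNF366 had none. Of 8 proteins with roles in RNA, the ribosome or the spindle, 3 had labelled peaks, with low heights of 16 at ZNF207, 18 at ZNF622 and 17 at ZNF593. ZNF326 had no label, but a peak of height 24 with another gene's symbol lay 144 bp from one of its starts. These 5 lists gave shares of 28.6 to 50% beside the background of 30.3%, and no list was tested against it.

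A last list held 14 partners that KRAB domains work through. Of these, 11 (78.6%) had a labelled peak, beside the background of 30.3% of all protein-coding genes. CBX5, the HP1 alpha protein, was the highest of these, at 56 over 2017 bp. TRIM28, the direct partner of KRAB, had 33, the H3K9 methyltransferase gene SETDB1 26 and its cofactor ATF7IP 22. The HUSH subunits TASOR and MPHOSPH8 had 18 each and MORC2 had 23. The deacetylases HDAC1 and HDAC2 had 34 and 24. The NuRD remodellers CHD3 and CHD4 had labelled peaks of 18, 32 and 17 and of 23 and 18, and an unlabelled peak of height 44 lay 55 bp from a start of CHD4. CBX1, CBX3 and PPHLN1 had no label, although a peak of height 44 with another gene's symbol lay 132 bp from a start of CBX3. An unlabelled peak of height 19 lay 857 bp from a start of PPHLN1. The list was chosen with results of these data known, so its share is a description and was not tested against the background.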

How the data were processed

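Cut&Run libraries of U937-PR9 cells were made by the authors, who used Trimmomatic for trimming, Bowtie2 for alignment to hg19 and SAMtools to drop duplicates, removed blacklisted reads, called peaks with SEACR against paired controls (norm union) and kept those reproducible at an IDR under 0.05. The list they deposited gives each peak a total signal, a SEACR score (the largest signal within it, called height) and a width, and gene symbols where the peak's highest interval met a promoter. Whether and how the signal was normalised, and whether it is of 1 replicate or of both, is not stated, and depth per library is unknown. A peak list holds no expression, so the cell type was not checked against markers. No column of other samples was met (0).

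Members and lists were chosen with earlier results of these data known. Starts, exons and proteins came from GENCODE release 44 mapped to GRCh37, and all 139 symbols matched, 3 of them to genes that are not protein-coding. An apex is the middle of the interval of largest signal. Coding sequences were translated (Biopython 1.88), KRAB was called with a profile built from 166 stretches (pyhmmer 0.12.3, E-value up to 0.001), and windows of 401 bases around apexes or canonical starts were read with pysam 0.24.0. Genes were named by rule: the 8 highest, 8 widest and 5 lowest peaks, genes with 2 or more peaks, role lists, and apexes over 1 kb from a start. Others named, such as members of runs and of the window from 20 to 25 Mb, were chosen after their values were seen. Shares carry Wilson 95% intervals, which cover counting error only. Log2 differences carry a standard error over peaks, and their code was tested on simulated data. Alternatives were other cut-offs, merged peaks, medians, 1 value per gene, other windows and classes of width or height.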

Additional observations from a re-analysis of the deposited data

Results flagged for a closer look

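The gene symbols of the list do not cover all ZNF starts. A peak apex lay within 1 kb of an annotated start of 36 protein-coding ZNF genes that carry no label of their own, and the comparisons of labelled peaks do not use them. The peak carried a symbol outside the ZNF rule at 19 of these genes, no label at 12 and the symbol of another ZNF gene at 5, and ZNF75D and ZNF449 shared 1 peak. Their heights ran from 15 to 54 with a median of 26.5. ZNF687 had 54, ZNF740 had 53 under the symbol of CSAD, ZNF574 had 45 and ZNF524 had 45 under the symbol of FIZ1. The shared starts inside the family were ZNF425 with ZNF398, ZNF668 with ZNF646, ZNF763 with ZNF700, ZNF490 with ZNF791, ZNF565 with ZNF146 and ZNF383 with ZNF585B. Which gene of such a pair the peak belongs to was not tested.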

How the results depend on the processing

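No paired analysis was possible because each peak has 1 value and none per replicate, so neither replicate could be left out. Of 49 alternatives, 34 gave a share within the Wilson interval, a difference within the 95% interval from its standard error or a count within 1.5 times the reported one, and 15 did not. No height or width difference changed sign, though within classes of width the log2 height difference shrank to -0.13 on chromosome 19 and -0.02 elsewhere. Against the comparison genes or peaks, the order turned for ZNF genes elsewhere under the height minimum and for AGGTCA in the shorter window, as given below. The number of ZNF genes fell from 139 to 67 with the median height of the list as a minimum and to 81 with the median width. The log2 height difference on chromosome 19 moved to -0.38 with medians and to -0.53 with total signal, and elsewhere to -0.24 with total signal. The log2 width difference on chromosome 19 moved to -0.16 within classes of height. With any apex within 1 kb of a start, the share of ZNF genes with a peak was 22.8% on chromosome 19 and 43.1% elsewhere, beside 48.1% and 38.9% of the genes outside the family. With the median height as a minimum it was 8.13% and 16.8%, beside 24.1% and 17.4%. Within 100 bases of the apex, AGGTCA stood at 4.44% on chromosome 19 and 4.9% elsewhere (9.13% and 9.41% of the other labelled peaks), GGAAGT at 31.4% elsewhere, and GGGCGG at 55.6% and 58.8%, since a shorter window holds fewer matches. ZNF peaks were lower or narrower in all 26 alternatives on height and width. Chosen after the data were seen were the share without 20 to 25 Mb (20.2% on chromosome 19), the repeated words, the KRAB profile and the CpG classes.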

Other observations

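In a stretch of chromosome 19 between 9 and 10 Mb, 0 of 11 ZNF genes had a labelled peak (among them ZNF317, ZNF266 and ZNF426). The stretch was chosen after the values were seen. By the rule of 3 counts, this 0 allows up to 27.3%, above the 17.5% of all ZNF genes of chromosome 19. ZNF699 in this stretch had an unlabelled peak of height 27, with its apex 273 bp from a start, and ZNF559 had a peak of height 19 with its apex 0 bp from a start, labelled ZNF559-ZNF177. Of the windows of 1 Mb with at least 10 ZNF genes, the largest share was 27.3% (3 of 11, from 56 to 57 Mb).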
